A study of Arabidopsis thaliana and Nicotiana benthamiana and Solanum lycopersicum with 20 samples.

Results

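The 10 genes described here encode nuclear-encoded core subunits of photosystem I in Arabidopsis. The set is not complete, since the PSAH subunit genes, PSAH1 and PSAH2, are given below with related genes. The 10 genes are PSAD1 (AT4G02770), PSAD2 (AT1G03130), PSAE1 (AT4G28750), PSAE2 (AT2G20260), PSAF (AT1G31330), PSAG (AT1G55670), PSAK (AT1G30380), PSAL (AT4G12800), PSAN (AT5G64040) and PSAO (AT1G08380). They are 10 of 27444 nuclear protein-coding genes, and were taken by name, with a single rice locus, OsPSAP, added. A summit of GLK binding was given to a gene when it lay from 1.5 kb upstream of the annotated start to 500 bp inside the gene. The genes were taken for their function, with no threshold on binding set here. All 10 are, however, in the study's own list of Arabidopsis GLK targets. The summits named there are the highest of each gene in the replicate 1 lists. That these genes are bound was thus known beforehand.

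Photosystem I takes electrons from plastocyanin in the thylakoid lumen and, with light energy, passes them to ferredoxin in the stroma. Its reaction centre proteins are made in the chloroplast, while many of the smaller subunits that dock the electron carriers and the antenna are encoded in the nucleus and imported. GOLDEN2-LIKE (GLK) TFs are MYB-related activators of the GARP family, known in land plants for switching on nuclear genes for chlorophyll synthesis, antenna proteins and photosystem subunits.

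The data are ChIP-seq summit lists of GLK1 and GLK2 in leaf samples of 5 species, 20 libraries in all, and each combination of species and TF has 2 biological replicates. The assay fixes proteins to DNA, recovers the fragments held by a tagged TF with an antibody to the tag, and sequences them. The 4 Arabidopsis and 4 rice lists were used. For Arabidopsis, both the GLK1 (AT2G20570) and the GLK2 libraries came from transgenic plants that carried the GLK cDNA with a C-terminal GFP tag in a glk1/glk2 double mutant, so that neither line had the native GLKs, and fully expanded leaves were pulled down with anti-GFP. For rice, the OsGLK1 and OsGLK2 libraries came from plants of the wild-type cultivar Nipponbare that carried an HA-tagged GLK under the ubiquitin promoter and kept their own GLK genes. In both species a transgenic line with high GLK protein was selected, so binding was that of an overexpressed TF, and the number of lines behind a library is not given in the sources used here. The series description calls the expression transient, while the methods describe stable transgenic Arabidopsis and rice. Plant age and the control used for peak calling are not given in the sources used here.

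Each list holds a line per summit with the fold change over control at the summit, which is the measure of binding used below, and the −log10 of its q-value. The Arabidopsis lists held 15576 and 13934 summits for GLK1 and 22900 and 22143 summits for GLK2. A summit list carries no read counts, and the study gives only a range of reads for each species, so the depth of each library is unknown and no counting interval can be given.

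The sequences at the highest summits are shown first, for reference in the description of the sites further below. They were read from the TAIR10 chromosomes on the strand of the gene, 5′ to 3′, around the site nearest to the GLK1 replicate 1 summit. Capitals mark the GLK-type site found in the 150 bp around that summit. The first choice was a loose GATT motif, which is GATT with a purine before it and 2 pyrimidines after it, and the second was GATTCC. Where a window held neither, GATTC was marked, and where it lacked that too, bare GATT was marked. All were searched on both strands, so AATC in capitals is GATT on the other strand.
PSAD1 (chr4:1230005-1230034, minus strand, loose motif): atgggtaagagaAAAATCTaatggttgaat
PSAD2 (chr1:754283-754312, minus strand, GATTC): aagggtaagaggaGAATCGAATCttggaac
PSAE1 (chr4:14204008-14204037, minus strand, GATTC): agtggagggaaacGATTCgtttaacccaaa
PSAE2 (chr2:8736688-8736717, plus strand, GATTCC): gtggtttaaaacGATTCCttttaaccccaa
PSAF (chr1:11216126-11216155, minus strand, loose motif): AAAATCCgcggcAAAATCTcttatccagtg
PSAG (chr1:20803536-20803565, minus strand, loose motif): aatatttctttgAAAATCTcataatccaga
PSAK (chr1:10722074-10722103, plus strand, loose motif): ggttttgaaagAAAATCTgcactgtgatga
PSAL (chr4:7521315-7521344, plus strand, bare GATT): tgagagccacaacAATCttaagaaacagat
PSAN (chr5:25629567-25629596, minus strand, loose motif): taggactgaaggGAAATCTcaccttatcca
PSAO (chr1:2641804-2641833, minus strand, loose motif): gtccacagaataAAAATCTatttcttgtgt

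For the 4 genes whose highest summits lay upstream of the annotated start, the 120 bases that end just before the start are shown with the same marks, because they hold the summit itself.
PSAD2 (chr1:754263-754382, minus strand): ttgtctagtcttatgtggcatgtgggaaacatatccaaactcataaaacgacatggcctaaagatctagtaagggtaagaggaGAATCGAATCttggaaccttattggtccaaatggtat
PSAE2 (chr2:8736614-8736733, plus strand): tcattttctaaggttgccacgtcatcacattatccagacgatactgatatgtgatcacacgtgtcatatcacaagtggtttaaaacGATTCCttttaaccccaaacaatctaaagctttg
PSAG (chr1:20803450-20803569, minus strand): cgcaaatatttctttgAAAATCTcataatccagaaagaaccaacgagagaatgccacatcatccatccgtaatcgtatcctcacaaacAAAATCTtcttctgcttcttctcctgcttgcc
PSAK (chr1:10722063-10722182, plus strand): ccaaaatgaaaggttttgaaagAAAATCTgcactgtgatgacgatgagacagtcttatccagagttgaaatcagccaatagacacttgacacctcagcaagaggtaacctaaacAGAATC
The last capitals of PSAK belong to a loose site whose final base is the annotated start itself, 1 base past the printed stretch.

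All 10 genes were bound by both TFs, and strongly. Each had a summit in its window in all 4 lists, which 23.0% of all protein-coding genes had. The highest summit of each was also among the 500 highest summits of all 4 lists, against 1.05% of all protein-coding genes. With a limit of 100 in place of 500, 8 of the 10 remained, against 0.306% of all genes, and the 2 that did not were PSAD1 and PSAN. The lowest-ranking of the 10 stood at 171 and 188 in the GLK1 lists and at 106 in each GLK2 list, so the whole set sat within the upper 1.35% of each list. No p-value was attached to these counts, because the genes are known photosynthesis genes and were taken up with earlier results of these data in view.

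**Figure D1:**
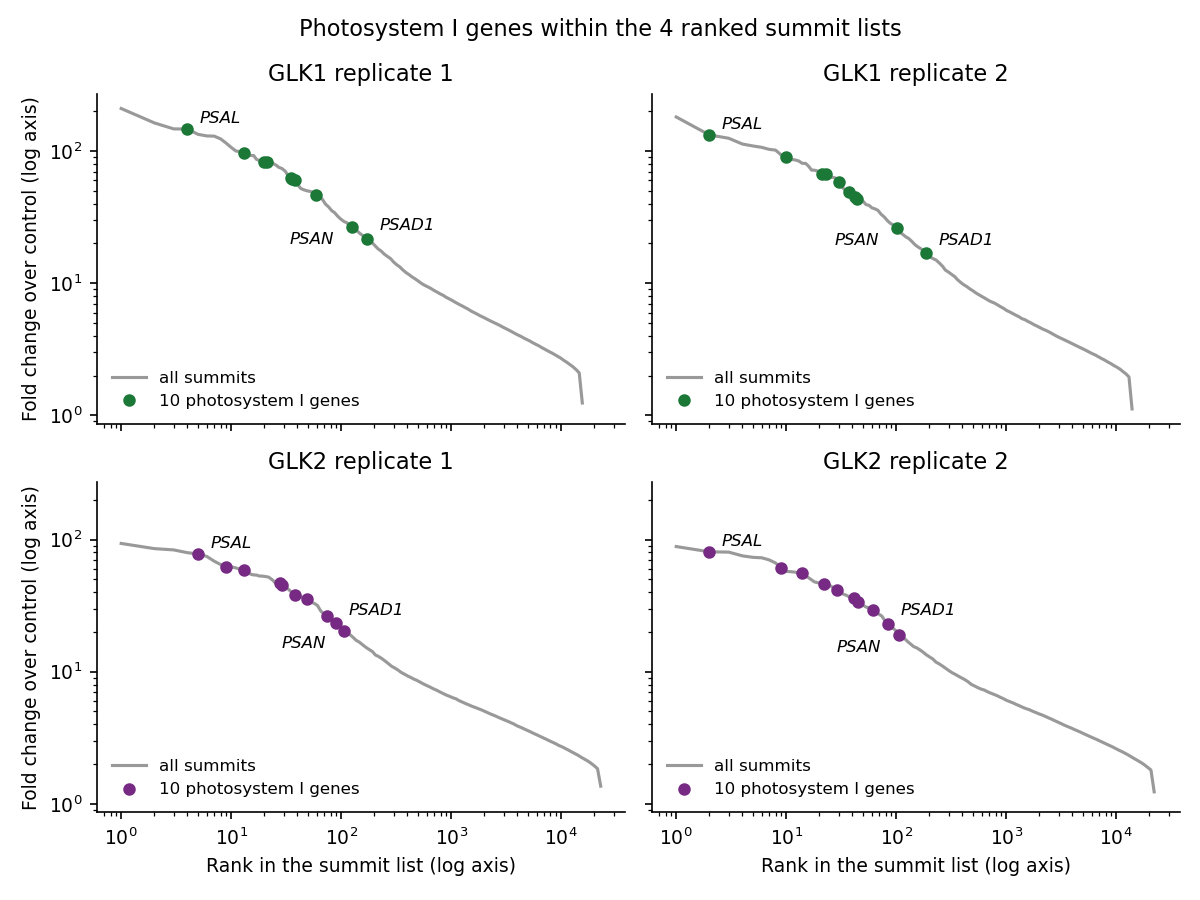
Fold change over control (log axis) of summits against their rank in the list (log axis), for GLK1 (upper panels) and GLK2 (lower panels), 1 panel per replicate. The grey line is the whole list and the points are the highest summits of the 10 photosystem I genes. They lie on the steep upper end of each curve, between rank 2 and rank 188, with PSAL first.

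The median of the highest fold changes of the 10 genes was 62.0 and 53.9 in the GLK1 lists and 41.5 and 38.7 in the GLK2 lists. For all protein-coding genes with a summit in the list, the medians were 3.33 and 3.01 for GLK1 and 2.84 and 2.77 for GLK2. The −log10 q of the highest summits was at least 192 in every list. The members varied widely among themselves, and the order of their levels was alike in the replicates. Across the 10 genes, Spearman's rho was 0.94 between the GLK1 replicates, 0.99 between the GLK2 replicates and 0.78 to 0.93 between a GLK1 and a GLK2 list. These are descriptions over 10 genes within single lists, with no test.

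**Figure D2:**
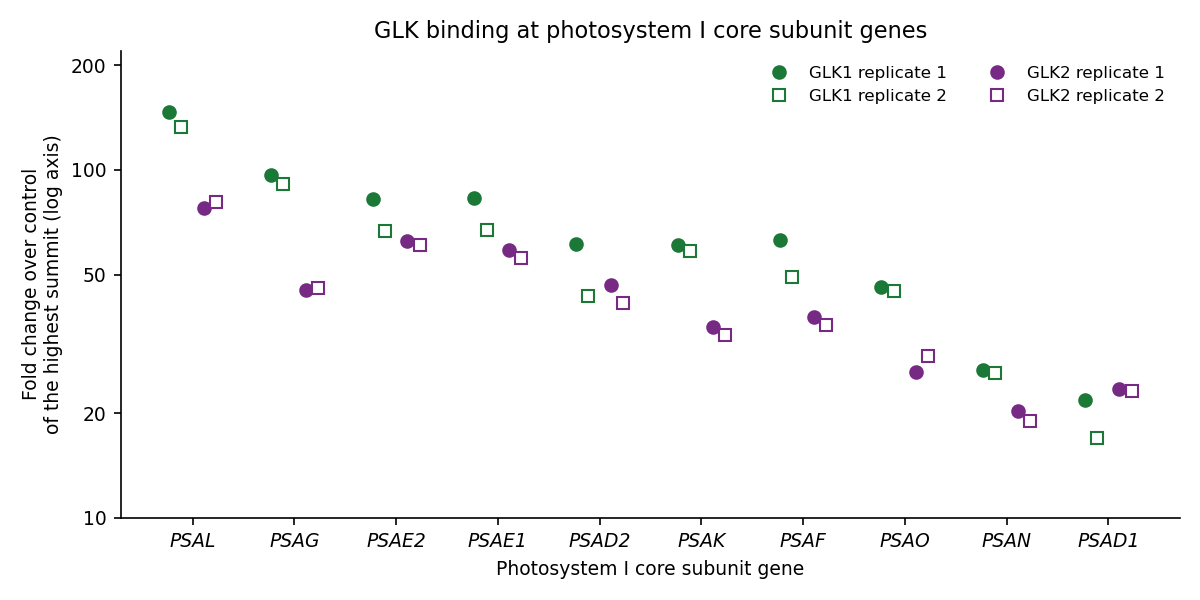
Fold change over control of the highest summit (log axis) at each photosystem I core subunit gene, ordered by the mean of the 4 libraries. Circles are replicate 1 and open squares replicate 2, with GLK1 (green) left of GLK2 (purple). PSAL is highest in every library, and PSAD1 has both GLK1 values below both GLK2 values.

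PSAD and PSAE sit on the stromal face and form the docking ridge for ferredoxin, and Arabidopsis has a pair of genes for each. PSAD2 had fold changes of 61.2 and 43.5 for GLK1, against 46.7 and 41.5 for GLK2. The GLK1 and GLK2 values overlapped. PSAD1 had 21.7 and 16.9 for GLK1, against 23.4 and 23.1 for GLK2, and was the only one of the 10 genes with both GLK1 libraries below both GLK2 libraries. Within a library, PSAD2 had 2.82 and 2.57 times the fold change of PSAD1 for GLK1 and 2.00 and 1.80 times for GLK2, so the order of the 2 copies held in 4 of 4 libraries.

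The PSAE copies, by contrast, were bound at nearly the same level. PSAE1 had 82.9 and 67.2 for GLK1, against 59.0 and 55.7 for GLK2. PSAE2 had 82.7 and 66.6 for GLK1, against 62.3 and 60.8 for GLK2. The ratio of PSAE1 to PSAE2 within a library was 1.00 and 1.01 for GLK1 and 0.95 and 0.92 for GLK2. For both genes the deposited fold changes of the GLK1 libraries were above those of the GLK2 libraries. So were those of 26.7% of the 6313 genes with a summit in all 4 lists. Among the 288 genes within the 500 highest of all 4 lists the share was 61.8%. After the quantile normalisation described below, the log2 difference, GLK1 minus GLK2, was -0.18 at PSAE1 and -0.36 at PSAE2.

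PSAF and PSAN are on the lumenal side, where PSAF takes part in docking plastocyanin. PSAF had 62.8 and 49.4 for GLK1, against 37.8 and 35.9 for GLK2. PSAN, an extrinsic lumenal subunit, had 26.6 and 26.1 for GLK1, against 20.2 and 19.0 for GLK2. On the deposited scale GLK1 was above GLK2 without overlap at both genes. After quantile normalisation the log2 difference was 0.004 at PSAF and 0.05 at PSAN. PSAN had the lowest level of the 10 in both GLK2 lists, while PSAD1 was lowest in both GLK1 lists.

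PSAG and PSAK are related membrane subunits on the rim of the complex, next to the antenna. PSAG had 97.0 and 91.0 for GLK1, against 45.1 and 45.8 for GLK2. PSAK had 60.8 and 58.4 for GLK1, against 35.4 and 33.5 for GLK2. Both showed a clear gap between the TFs on the deposited scale, and the 2.07-fold ratio of means at PSAG was the largest of the 10.

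PSAL and PSAO lie on the opposite side, at the place where light-harvesting complexes of photosystem II can attach. PSAL had 147 and 133 for GLK1, against 77.8 and 80.9 for GLK2, and was the highest of the 10 in every library, at ranks 4 and 2 for GLK1 and 5 and 2 for GLK2. PSAO had 46.2 and 44.8 for GLK1, against 26.2 and 29.2 for GLK2. Both had all GLK1 values above all GLK2 values on the deposited scale. After quantile normalisation the log2 difference was 0.04 at PSAL and 0.19 at PSAO.

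In the order of mean levels, 4 of the 9 neighbouring pairs had overlapping replicate ranges for GLK1 and 1 of 9 had for GLK2. For GLK1 these were PSAE1 with PSAE2, PSAK with PSAF, PSAF with PSAD2 and PSAD2 with PSAO. For GLK2 the only such pair was PSAG with PSAD2. With 2 replicates per TF, a gap between ranges is no test.

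The position of the summits was tightly shared. The highest summits of the 10 genes lay between 91 bp upstream of the annotated start and 146 bp inside it in all 4 lists, with a median of 36 bp inside. Over the 4 lists, the highest summits of a gene spanned as little as 5 bp at PSAF and at most 33 bp at PSAK. By the annotation, the summits lay upstream of the start at 4 genes (PSAD2, PSAE2, PSAG and PSAK), in the 5′ UTR at 5 genes (PSAD1, PSAE1, PSAF, PSAN and PSAO) and in a coding exon at PSAL, where the coding sequence begins 26 bp from the start. At PSAL the highest summits were 90 and 74 bp inside for GLK1 and 86 bp inside in each GLK2 list. With a window restricted to the 1.5 kb upstream of the start, 6 genes still had a summit in all 4 lists and 4 were still among the 500 highest.

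**Figure D3:**
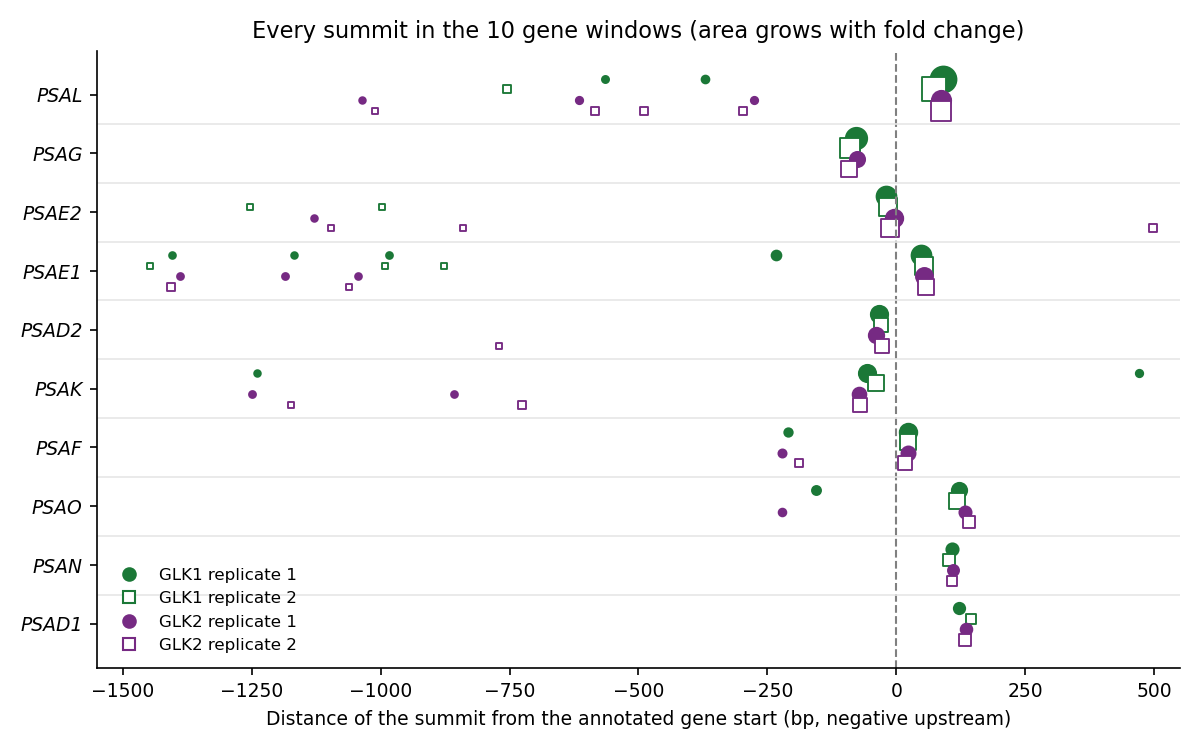
Distance of every summit in the 10 gene windows from the annotated gene start (bp, negative upstream), 1 row per gene and 1 line of points per library, with GLK1 above GLK2. Symbol area grows with the fold change. The large symbols gather from 91 bp upstream to 146 bp inside, and nearly all of the small ones lie further upstream.

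The other summits called in the windows were much lower. The windows held 80 summits over the 4 lists, of which 40 were the highest ones and 40 were lower. Of the lower summits 38 lay upstream, and their fold change was between 1.98 and 14.2 with a median of 3.11. Where a gene had a second summit in a list, it reached 3.32% to 23.5% of the highest. The strongest was 233 bp upstream of PSAE1 in GLK1 replicate 1, at 14.2. PSAO had a second summit of 10.9, which was 155 bp upstream, in the same library. No other lower summit was among the 500 highest of its list, and PSAD1, PSAG and PSAN had no lower summit in any list.

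Some of the summits lie near the start of a further gene, and a summit cannot be ascribed to one gene by position alone. PSAE2 and PSAO share their summits with divergent neighbours, AT2G20250 and AT1G08390, whose starts were 118 and 260 bp away from the GLK1 replicate 1 summit. The PSAE1 summit lay 386 bp downstream of the start of AT4G28755, on the other strand. The PSAK summit was 1283 bp upstream of DLAH (AT1G30370), and the PSAD1 summit 1029 bp upstream of AT4G02760. When each summit was given to the nearest start only, all 10 photosystem I genes still had a summit among the 500 highest of all 4 lists.

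On the fold changes as deposited, 8 of the 10 genes had both GLK1 libraries above both GLK2 libraries, where 26.7% of the 6313 genes with a summit in all 4 lists did. A single gene, PSAD1, had both below, against 23.0% of all genes. The members' median log2 difference, GLK1 minus GLK2, was 0.51, against 0.009 over all genes. Other strongly bound genes lay to the same side, and the highest fold change of a whole list was 210 and 181 for GLK1, against 93.6 and 88.6 for GLK2. Of the 288 genes among the 500 highest in all 4 lists, 61.8% had both GLK1 libraries above, with a median difference of 0.35. By rank within the list, 4 of the 10 genes stood higher in both GLK1 lists and 4 stood higher in both GLK2 lists.

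To compare GLK1 with GLK2 on a common scale, the log2 fold changes of the 6313 genes were quantile-normalised, which gives the 4 libraries the same distribution, and tested with limma (two-sided, Benjamini-Hochberg adjusted p of 0.05 or less). The GLK1 and GLK2 libraries came from different transgenic plants. A difference between the TFs thus cannot be told apart from one in line, protein level or pull-down. The p-values rest on the spread between the 2 replicate libraries of each TF. Of the 10 genes, 2 were called higher for GLK1, where 7.54% of all genes tested were. A further 3 were called lower for GLK1, where 7.25% of all genes were. Strongly bound genes were called more often in general. Of the 288 genes among the 500 highest in all 4 lists, 63 were called higher and 84 lower for GLK1. The median difference of the 10 was 0.02, against -0.007 over all genes. PSAG was higher for GLK1 by 0.40 ± 0.07 on the log2 scale (SE, limma adjusted p = 0.00031). PSAK was higher for GLK1 by 0.26 ± 0.09 (SE, limma adjusted p = 0.044). PSAG and PSAK also lay on the side of GLK1 under both other scalings, as did all of the 10 genes but PSAD1. The median of the 288 genes lay to that side too. It was 0.35 with the values as deposited and 0.36 with each library centred on its median.

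PSAD1 was lower for GLK1, at -0.65 ± 0.11 (SE, limma adjusted p = 0.00016). PSAD2 was at -0.38 ± 0.08 (SE, limma adjusted p = 0.0022) and PSAE2 at -0.36 ± 0.07 (SE, limma adjusted p = 0.00046), but for both the difference turned to the side of GLK1 when the values were used as deposited, at 0.23 and 0.27, or centred on the median of each library, at 0.25 and 0.28. The direction of PSAD1 was the same on all 3 scales, at -0.28 as deposited and -0.26 median-centred, without passing the test on either of these 2 scales. The other 5 genes did not pass. PSAE1 was at -0.18, PSAF at 0.004, PSAL at 0.04, PSAN at 0.05 and PSAO at 0.19, which does not show that the TFs bound them equally.

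Most of these calls changed with the scaling. With deposited values, 5 genes (PSAF, PSAG, PSAK, PSAL and PSAO) were called higher for GLK1 by limma and 0 lower, with 7 and 0 at an unadjusted p under 0.05. With median-centring, 8 were called higher for GLK1, that is all but PSAD1 and PSAD2, and 0 lower, with 9 and 1 at an unadjusted p under 0.05. Over all genes the calls were 488 higher and 219 lower for GLK1 with deposited values and 677 and 315 with median-centring, against 476 and 458 after quantile normalisation. Among the 288 genes of like height they were 119 and 6 with deposited values and 144 and 12 with median-centring. When all summits of a window were summed in place of the highest, 0 of the 10 passed in either direction in limma, with 2 higher and 3 lower for GLK1 at an unadjusted p under 0.05, and 28 and 14 of all genes were called. The folds stayed of like size at PSAG (0.52), PSAE2 (-0.38), PSAD1 (-0.48) and PSAD2 (-0.30), and PSAK was at 0.13. PSAK also lost its call in limma when a library was left out, at 0.15 without GLK1 replicate 2 (adjusted p = 0.27), 0.27 without GLK2 replicate 1 (adjusted p = 0.15) and 0.30 without GLK2 replicate 2 (adjusted p = 0.12). It lost it too with −log10 q as the signal, at 0.22 (limma adjusted p = 0.13), with the upstream window, at 0.067 (limma adjusted p = 0.66), and with all gene types, at 0.19 (limma adjusted p = 0.16). PSAG, PSAD1, PSAD2 and PSAE2 stayed past the threshold whichever single library was left out, where the lone library of a TF is assumed to vary like the other pair.

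**Figure D4:**
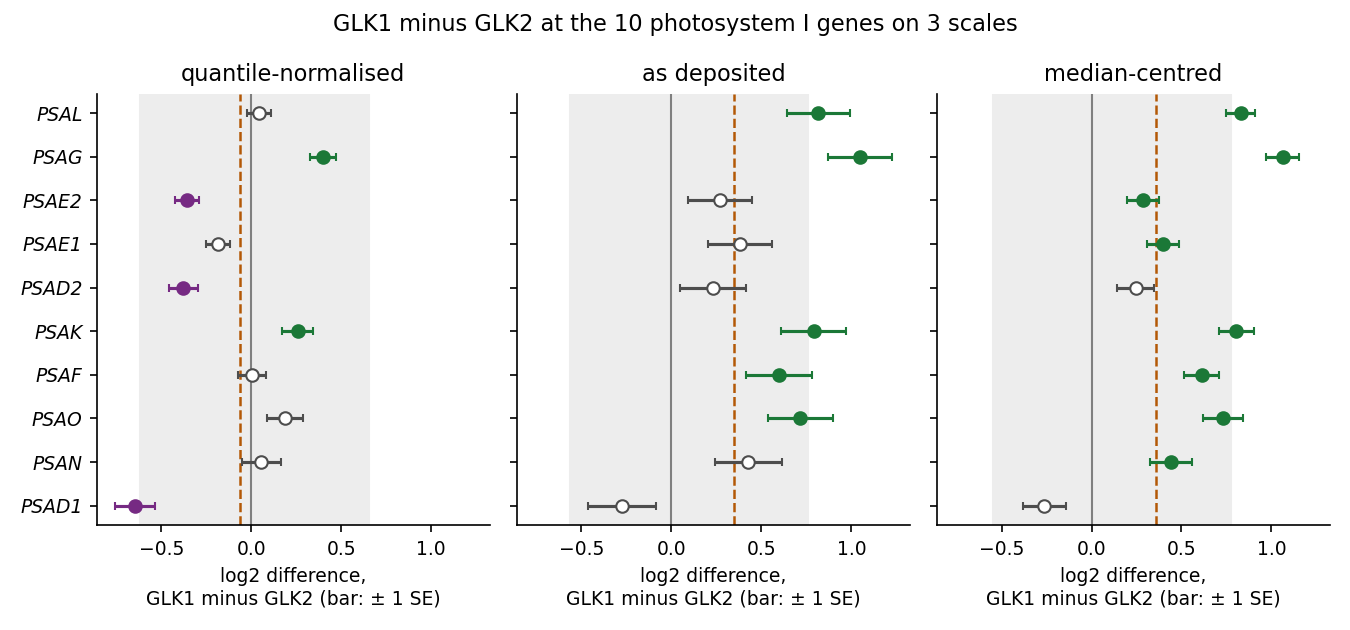
log2 difference in fold change, GLK1 minus GLK2, at the 10 genes with the fold changes quantile-normalised (left), as deposited (middle) and median-centred (right). Points are limma estimates with bars of 1 SE, filled where the adjusted p is 0.05 or less (green, higher for GLK1, and purple, lower for GLK1), grey bands hold the 5th to 95th percentile of all 6313 genes, and dashed lines mark the median of the 288 genes among the 500 highest in all lists. PSAG, PSAK, PSAF, PSAL, PSAN and PSAO lie right of 0 in each panel and PSAD1 left of 0.

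The sites printed above differed among the genes. In the 150 bp windows of the GLK1 replicate 1 summits, 6 of the 10 genes (PSAD1, PSAF, PSAG, PSAK, PSAN and PSAO) held the loose GATT motif, against 26.1% of all windows of that list, 54.0% of its 500 highest windows and 23.9% of the 150 bp before all protein-coding genes. The count was 6 in each of the other 3 lists. PSAL, the highest in every library, had neither the loose motif nor GATTCC nor GATTC in its window. Bare GATT was in all 10 windows and in 83.5% of all windows, so its presence sets nothing apart. A match is a description of letters, and a window without one says nothing about the TF.

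GATTCC was found at PSAE2 alone among the 10, against 7.16% of all windows and 8.6% of the 500 highest. GATTC was found at 6 of the 10, against 31.8% of all windows and 42.0% of the 500 highest. CACGTG, the G-box bound by bZIP and bHLH TFs, was in the windows of PSAE1 and PSAE2, 2 of 10, against 12.1% of all windows and 24.0% of the 500 highest. GATAAG, the I-box core, was at 5 of 10 (PSAD1, PSAD2, PSAF, PSAK and PSAN), against 10.9% of all windows and 21.8% of the 500 highest. GATTC overlaps GATTCC and can overlap the loose motif.

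A pair of features of the sites was noticed when the sequences were read and counted afterwards, so both are descriptions with no test. All 11 loose sites, which lay in 6 of the 10 windows, had their GATT on the strand opposite to the gene, as had all 7 GATAAG sites. Over the 288 genes among the 500 highest in all lists, 55.6% of the loose sites and 51.4% of the GATAAG sites were on that strand. The GATTC sites were not all on that strand, with 6 of 9 in the 10 windows, against 53.9% over the 288 genes, and the marked sites of PSAE1 and PSAE2 read GATTC along the gene. The other was a TTATCCA on the gene strand, TGGATAA on the opposite one, which was in the windows of PSAD1, PSAE2, PSAF, PSAK and PSAN. That is 5 of 10, against 4.44% of all GLK1 replicate 1 windows, 50 of the 500 highest and 3.33% of the 150 bp before protein-coding genes. It was counted at 4 of 10 around the summits of each GLK2 list, and it overlaps GATAAG where a G follows. At PSAF it stands 1 base after a loose site, and in PSAK it can be read in the 120 bases printed above, 6 bp from the summit.

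Other genes of photosystem I gave a mixed picture. The 3 further subunit genes had PSAH1 highest, at 70.6 and 53.6 for GLK1 and 36.6 and 30.4 for GLK2. PSAP, also called CURT1B, a membrane-bending protein of the thylakoid grana, was lowest, at 10.1 and 8.20 for GLK1 and 4.88 and 5.38 for GLK2. Between the PSAH copies, PSAH1 had 2.60 and 2.34 times the fold change of PSAH2 for GLK1, and 1.26 and 1.18 times for GLK2.

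Of the 6 LHCA antenna genes, 4 had summits in all lists, all of them among the 100 highest. LHCA4 was highest, at 147 and 102 for GLK1 and 74.6 and 70.2 for GLK2, and LHCA5 lowest, with a summit in GLK2 replicate 1 alone, at 1.94. On the quantile-normalised scale, the median difference of these 4 was -0.55, beside 0.02 for the 10 core genes. Called lower for GLK1 were 7.25% of all genes tested and 84 of the 288 genes among the 500 highest in all 4 lists. Of the 4 LHCA genes, 3 (LHCA1, LHCA2 and LHCA3) were called lower for GLK1, while LHCA4 was at 0.08 and did not pass. As deposited and median-centred, 0 of these 3 passed in limma, also 0 at an unadjusted p under 0.05, and LHCA1 turned to 0.077 and 0.092. The difference between the lists was not tested.

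Among 6 genes for the electron carriers on either side of photosystem I, 5 had summits in all lists and 3 were among the 500 highest. FD2, a leaf ferredoxin, was highest for both TFs, at 55.9 and 42.4 for GLK1 and 40.0 and 38.3 for GLK2. FD1 was the lowest of the 5, at 3.13 and 1.896 for GLK1 and 3.55 and 2.95 for GLK2. In limma on the quantile-normalised scale, 1 of these 5 (PETE2, plastocyanin) was called higher for GLK1 and 1 (FD2) lower, at -0.25. Over all genes tested, 7.54% were called higher and 7.25% lower. FD2, however, turned to 0.32 as deposited and 0.33 median-centred.

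Of the 6 genes for assembly factors, 2 (PSA3 and APO1) had summits in all lists, 1 (Y3IP1) had none in any list and none was among the 500 highest in all 4. PSA3 was the highest, in the GLK1 lists slightly above PSAD1, at 22.6 and 18.5 for GLK1 and 8.31 and 8.44 for GLK2. It was called higher for GLK1 by 0.97 ± 0.13 on the log2 scale (SE, limma adjusted p = 7.4e-06). Its summits lay far from its annotated start, at -1180 to -1145 bp (negative upstream), and cannot be ascribed to PSA3 by position alone. For the oxygen-evolving complex of photosystem II, all 6 genes had summits in all lists and 4 were among the 500 highest, with PSBP1 at 99.1 and 84.2 for GLK1 and 57.4 and 57.2 for GLK2, and PSBP2 lowest at 4.97 and 5.72 for GLK1 and 6.004 and 6.25 for GLK2. On the quantile-normalised scale, 7.54% of all genes tested were called higher and 7.25% lower for GLK1. Among the 288 genes within the 500 highest of all 4 lists, 63 were called higher and 84 lower. Of the 6 genes of the complex, 3 were called higher for GLK1 and 1 (PSBO2) lower. Each had the same direction on the other 2 scales. The 3 passed there too, while PSBO2 did not, at -0.25 as deposited and -0.23 median-centred.

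**Figure D5:**
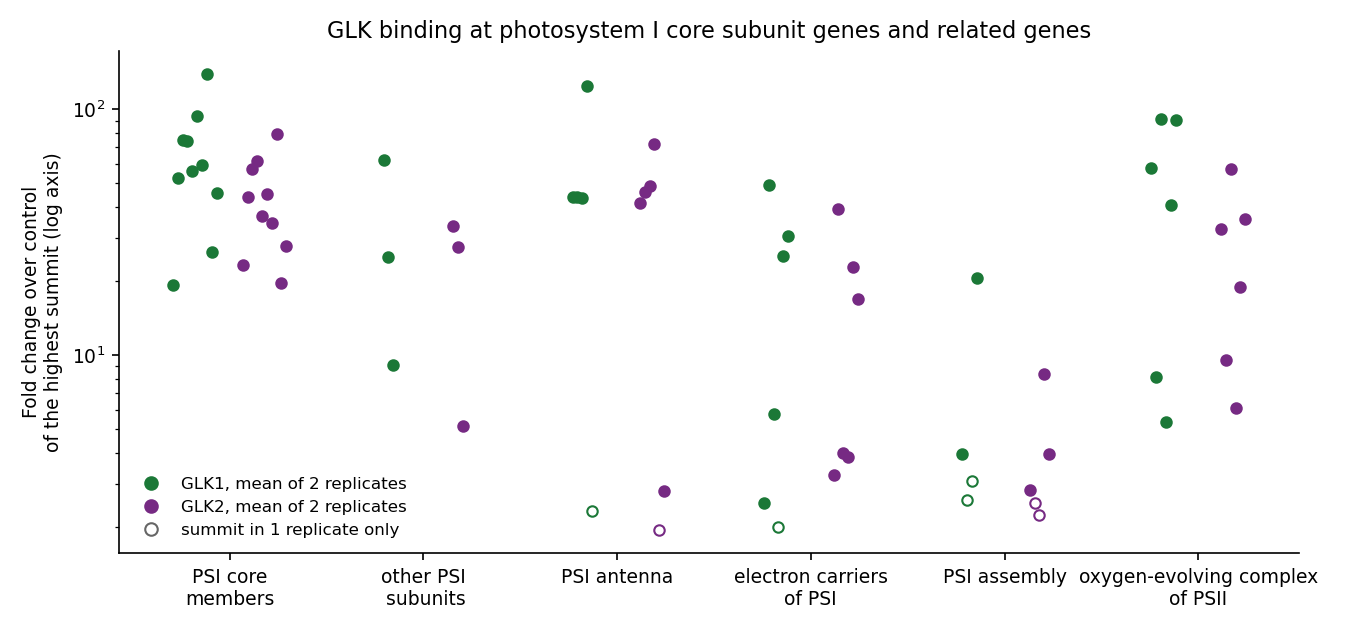
Mean fold change over control of the highest summit (log axis) per gene, for GLK1 (left in each group, green) and GLK2 (right, purple), in the photosystem I core genes and 5 related gene lists. Open points had a summit in 1 replicate alone, and genes without a summit are not drawn. The 10 core genes all lie above 19, while the antenna, carrier and assembly lists each also hold genes under 4.

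In rice the locus given as OsPSAP, on chromosome 7 of MSU7.0, had a summit in each list, at positions 16743525 and 16743521 for OsGLK1 and at 16743515 and 16743536 for OsGLK2, which span 21 bp. The fold change differed 1.08-fold between the OsGLK1 replicates and 3.35-fold between the OsGLK2 replicates, at 131 and 121 for OsGLK1 and 128 and 38.3 for OsGLK2. Relative to the median summit of its own list, the locus stood at 33.3 and 29.0 times for OsGLK1 and at 25.4 and 7.15 times for OsGLK2. The list of OsGLK2 replicate 2 was the shortest of the 4, with 1809 summits, against 6168 in OsGLK2 replicate 1. The same list held a second summit 333 bp away from the locus position, at 3.85, and no other rice list held another within 2 kb. With 2 libraries for each TF and such a spread between the OsGLK2 replicates, no test of a difference between the TFs was made at this locus. An exact permutation test of 2 against 2 cannot reach 0.05. No rice gene annotation was used, so the distance to the gene start is not given, and PSAP is not a core subunit in Arabidopsis, where its level was the lowest of the subunit genes.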

How the data were processed

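According to the study's methods, reads were aligned with Bowtie2 2.3.2 (Arabidopsis to TAIR10, rice to MSU7.0), filtered and deduplicated with SAMtools, and summits were called per library with MACS2 2.2.1. The deposited lists hold the authors' fold change over control, a linear ratio, and −log10 q-values, in windows of 150 bp. The control is not given in the sources used here, and read depth is given only as a range per species, so deposited fold changes of different libraries may sit on different scales.

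Summits were assigned to genes of the RefSeq annotation of TAIR10, and the highest in each window was taken. The 6313 protein-coding genes with a summit in all 4 lists were log2-transformed, quantile-normalised and fitted with limma 3.58.1 (eBayes with trend) in R 4.3.3, GLK1 minus GLK2. The fit was tested on simulated data. Genes with a summit missing from a list were not fitted, and nothing was imputed. Other steps used Python 3.11.15 with numpy 2.4.6 and pandas 2.3.3. The members and gene lists were chosen with earlier results of these data known. All 10 members were named, with the highest and lowest gene of each related list and genes sharing a member's summit. Alternatives were other scalings, signals, windows, filters and gene sets, each library left out, and a replicate block. The other 12 lists were not used.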

Additional observations from a re-analysis of the deposited data

How the results depend on the processing

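The number of photosystem I genes called between GLK1 and GLK2 depended on the scaling and the signal. Called higher for GLK1, against 2 of 10, were 5 with deposited fold changes, 8 with median-centring, 0 with summed summits, 1 with the upstream window, 1 with all gene types and 1 to 3 with single libraries left out. Called lower for GLK1, against 3 of 10, were 0 with deposited fold changes, 0 with median-centring, 0 with summed summits and 3 to 4 with single libraries left out. Over all genes, 476 were called higher and 458 lower for GLK1. These became 28 and 14 with summed summits, 299 and 287 with the upstream window (4712 genes tested), 156 and 160 with the filter on fold change and −log10 q of at least 5 (817 genes tested), and 274 to 407 and 267 to 413 with single libraries left out. With deposited fold changes 219 were lower, and 69.0% of all calls were higher for GLK1, against 51.0%. The cause was not tested.

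Reversed differences (log2, GLK1 minus GLK2) were 0.23 at PSAD2, 0.38 at PSAE1 and 0.27 at PSAE2 with deposited fold changes, and 0.25, 0.40 and 0.28 at these genes with median-centring. PSAE1 had 0.80 with the upstream window, where its main summit is outside. With summed summits PSAF had -0.10 and PSAL -0.17, and with all gene types PSAF had -0.040. With single libraries left out PSAF ranged from -0.019 to 0.032, PSAL from -0.081 to 0.18 and PSAN from -0.030 to 0.15. PSAD1, PSAF, PSAN and PSAO could not be fitted with the upstream window. The replicate block, which pairs libraries by number, gave 593 and 597 genes called and 2 higher and 4 lower members, PSAE1 being added at -0.18. PSAE1 was also called lower for GLK1 with −log10 q (-0.33), with the filter of at least 5 (-0.18), with the nearest start (-0.22) and without GLK1 replicate 1 (-0.20) or 2 (-0.18). Same-numbered libraries shared little (correlation of deviations 0.036), so the numbers do not show a pairing.

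Counts of bound members stayed at 10 in all settings but the upstream window (6 with a summit, 4 among the 500 highest) and a rank limit of 100, which gave 8. The motif count of 6 became 1 with GATTCC, 9 in 300 bp windows and 10 with bare GATT, which was added after seeing the data, as were GATTC (6) and TGGATAA (5). The wider window raised the share elsewhere too. In GLK1 replicate 1, 43.5% of all 300 bp windows and 68.6% of the 500 highest held the loose motif. The 5 rice summits were all within 500 bp.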
